A study of Rattus norvegicus with 12 samples.

Results

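Transcripts of AQP1, a water channel, and of TRPV4, a calcium-permeable channel that senses cell volume, were followed in rat choroid plexus between the light and the dark phase. They are 2 of the 32883 genes quantified in each library, and were taken as the rows whose Ensembl identifiers the study's own gene tables pair with these symbols (ENSRNOG00000011648 for AQP1 and ENSRNOG00000001195 for TRPV4). The study asked whether the transcriptome of this tissue varies between light and dark, with the secretion of cerebrospinal fluid in view. Choroid plexus of the lateral and the fourth ventricle was taken from 12 male Sprague-Dawley rats aged 9 weeks, 6 in the light phase at zeitgeber time 8 (ZT8) and 6 in darkness at ZT20, each giving 1 library. All rats were anesthetized with ketamine and xylazine, and those of the dark phase were sampled in darkness with a red lamp lit at times. Only these 2 times were sampled, in 1 sex, and the tissue was sequenced whole. Expression is given as TPM, in which a gene's reads are divided by its length and scaled to the same total in every library.

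The choroid plexus is a folded epithelium in the brain ventricles that secretes most of the cerebrospinal fluid. AQP1 forms a tetramer of water pores and lies mainly in the membrane that faces the fluid. TRPV4 belongs to the transient receptor potential (TRP) family and opens upon cell swelling, warmth and lipid messengers. Calcium that enters through it can act on kinases and ion transporters of the same cell.

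The sequence around each annotated start is shown first, since it can be read for the motifs of factors that follow the time of day. The sequences are from RefSeq on the GRCr8 assembly, which is not the Rnor_6.0 assembly to which the reads were mapped, and each runs 5′ to 3′ from 250 bases before to 50 bases after the start that RefSeq's table uses. Aqp1 lies on the plus strand of chromosome 4 and spans chr4:85812784-85824964, with the window chr4:85812534-85812833. Trpv4 lies on the plus strand of chromosome 12 and spans chr12:47599161-47638143, with the window chr12:47598938-47599237, whose start lies within this span and not at its first base. Capitals mark the letters of a TATA box (TATAAA) or a GC box (GGGCGG), searched on both strands.
Aqp1: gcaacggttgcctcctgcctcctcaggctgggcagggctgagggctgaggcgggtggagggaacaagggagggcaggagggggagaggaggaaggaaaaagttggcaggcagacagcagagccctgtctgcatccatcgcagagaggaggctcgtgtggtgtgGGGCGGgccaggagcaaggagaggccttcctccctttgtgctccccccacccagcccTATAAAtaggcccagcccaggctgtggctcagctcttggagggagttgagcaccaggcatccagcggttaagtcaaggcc
Trpv4: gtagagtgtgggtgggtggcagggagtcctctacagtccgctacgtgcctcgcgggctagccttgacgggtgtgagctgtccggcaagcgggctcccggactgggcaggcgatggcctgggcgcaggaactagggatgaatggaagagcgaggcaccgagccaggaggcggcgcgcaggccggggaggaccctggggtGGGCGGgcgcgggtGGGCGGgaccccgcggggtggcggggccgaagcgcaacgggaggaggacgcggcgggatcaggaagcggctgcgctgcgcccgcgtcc

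The Aqp1 window held 1 TATAAA, 30 bases before the start, and 1 GGGCGG. In the Trpv4 window GGGCGG occurred 2 times and TATAAA did not occur. Of all 27457 rat promoter windows of this length, 14.3% held TATAAA and 34.9% held GGGCGG. The Trpv4 window had 73.7% G and C with 34 CpG dinucleotides, the Aqp1 window 64.0% with 6, and the medians over all windows were 52.3% and 7. Letters bound by clock and hormone factors were also searched on both strands, namely the E-box CACGTG, its variant CACGTT, the D-box-like TTANNTAA, the nuclear receptor half-site AGGTCA and the glucocorticoid receptor half-site AGAACA. None of them occurred in either window, while 6.65%, 4.93%, 5.81%, 15.7% and 20.1% of all windows held them in this order, which says only that these letters are not in these windows. The annotation placed no other gene over either gene body, with the nearest neighbours Mindy4 and Ghrhr beside Aqp1 and Gltp and Fam222a beside Trpv4.

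Before the comparison, the tissue was checked against marker genes. All 14 markers of choroid plexus epithelium were expressed, and TTR alone, the gene of the thyroxine carrier transthyretin, took 25.4 to 31.0% of the TPM of a library. The 3 haemoglobin genes summed to 7467 to 29548 TPM at ZT8 and 4295 to 11133 TPM at ZT20. Light-phase replicate 2 held the highest of these sums, and also the highest sums of the 2 endothelial (139 TPM) and the 2 mural cell markers (421 TPM) that could be paired. The summed endothelial (71.4 to 139 against 72.1 to 113 TPM), mural (170 to 421 against 165 to 250 TPM), stromal (136 to 216 against 146 to 228 TPM) and macrophage markers (591 to 956 against 652 to 867 TPM) overlapped between the phases, and no marker that could be paired was at 0 throughout. Single markers within these sums did differ. FLT1 and PTPRC could be paired only through tables of genes that the authors had called, so a call of either was likely beforehand. Endothelial FLT1 had 12.7 TPM at ZT8 and 16.5 TPM at ZT20 without overlap (limma FDR = 0.000209), while endothelial PLVAP was not called (76.4 to 66.75 TPM, limma FDR = 0.456). Mural TAGLN (54.7 to 31.3 TPM, limma FDR = 0.0267) and macrophage PTPRC (2.47 to 1.84 TPM, limma FDR = 0.0484) were called lower at ZT20, with overlapping phases. The other mural and macrophage markers were not called. In bulk tissue, fewer cells of a type and less RNA per cell cannot be told apart.

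AQP1 was expressed at a higher level in every light-phase library than in any dark-phase library. Its expression was 579, 619, 536, 629, 653 and 610 TPM in light-phase replicates 1 to 6 (604 ± 41.3 TPM, SD, n = 6). In dark-phase replicates 1 to 6 it was 526, 433, 515, 400.4, 486 and 468 TPM (472 ± 48.2 TPM, SD, n = 6). The phases were separated narrowly, with 9.99 TPM between the lowest light-phase library, replicate 3, and the highest dark-phase library, replicate 1. The means differed by -132.9 TPM, dark minus light (two-sided exact permutation test, p = 0.00216, which is the lowest value possible with 6 against 6). After scaling of the libraries, the log2 fold change was -0.38 (standard error 0.07, 95% interval -0.53 to -0.23, limma FDR = 0.00284). AQP1 transcripts took 0.0604% of all TPM at ZT8 and 0.0471% at ZT20.

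TRPV4 was displaced in the opposite direction, with every dark-phase library above every light-phase library. It had 57.6, 65.2, 68.2, 57.9, 51.8 and 58.0 TPM in light-phase replicates 1 to 6 (59.8 ± 5.93 TPM, SD, n = 6). In dark-phase replicates 1 to 6 it had 76.5, 79.1, 88.3, 83.6, 74.05 and 76.35 TPM (79.6 ± 5.33 TPM, SD, n = 6). Between the highest light-phase library, replicate 3, and the lowest dark-phase library, replicate 5, lay 5.82 TPM. The means differed by 19.85 TPM, dark minus light (two-sided exact permutation test, p = 0.00216). The log2 fold change was 0.39 (standard error 0.06, 95% interval 0.26 to 0.53, limma FDR = 0.00115).

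**Figure D1:**
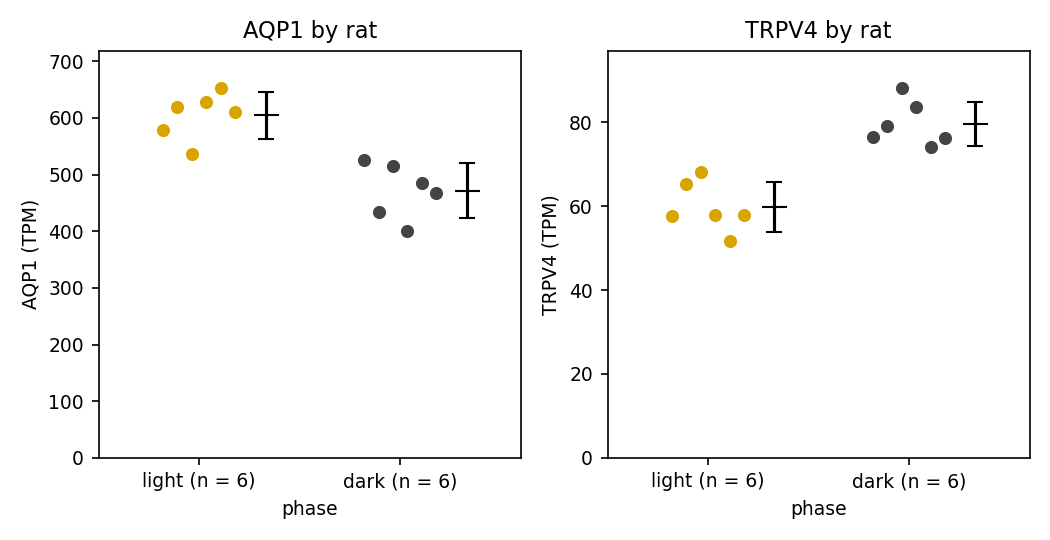
Expression of AQP1 and TRPV4 in TPM (vertical axes, from 0) in each of the 6 light-phase (ZT8) and 6 dark-phase (ZT20) libraries, with points for libraries and bars for the mean and SD. AQP1 lay between 536 and 653 TPM at ZT8 and between 400.4 and 526 TPM at ZT20, while TRPV4 lay between 51.8 and 68.2 TPM and between 74.05 and 88.3 TPM.

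Both changes were read against all 12513 genes tested, those with a mean of at least 1 TPM. Limma, with p-values adjusted over these genes by the Benjamini-Hochberg method (FDR), called 17.7% of them at a threshold of 0.05, 9.3% higher at ZT20 and 8.37% higher at ZT8. In 8.26% of the genes the phases did not overlap, 5.12% with higher values at ZT20 and 3.14% with higher values at ZT8. By size, 1184 genes (9.5%) had a larger log2 fold change in either direction than AQP1, and 1099 genes (8.8%) a larger one than TRPV4. Both transcripts are abundant, AQP1 at rank 175 and TRPV4 at rank 1462 of the genes tested by level. Among the 1997 abundant genes that the study's table ordered by expression pairs with a symbol, 99 (5.0%) changed more than AQP1 and 91 (4.6%) more than TRPV4. Both also varied more between rats of a phase than most of these genes, with residual SDs of 0.13 for AQP1 and 0.12 for TRPV4 on the log2 scale against a median of 0.093.

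One property of the libraries moved with the phase. The FPKM to TPM ratio of a library's totals, which falls as the mean length of the transcripts in a library rises, was 0.953 to 0.987 at ZT8 and 0.934 to 0.960 at ZT20, with some overlap. With this ratio as a covariate, the log2 fold changes were -0.37 for AQP1 and 0.38 for TRPV4, and their standard errors rose to 0.12 and 0.10. Neither was then called (limma FDR = 0.115 for AQP1 and 0.0765 for TRPV4), and 342 genes were called in all. Without light-phase replicate 2, the library rich in blood and vessel transcripts, the log2 fold change was -0.39 for AQP1 (limma FDR = 0.00467) and 0.41 for TRPV4 (limma FDR = 0.00183).

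The ratio of the 2 transcripts does not depend on how libraries are scaled. In light-phase replicates 1 to 6, AQP1 exceeded TRPV4 in TPM 10.1, 9.5, 7.86, 10.9, 12.6 and 10.5 times (10.2 ± 1.57, SD, n = 6). In dark-phase replicates 1 to 6 it did so 6.88, 5.48, 5.83, 4.79, 6.56 and 6.13 times (5.95 ± 0.755, SD, n = 6). Every light-phase library had the higher ratio, which follows from the separation of both genes in opposite directions, so the ratio adds its size and no further test. The difference in the mean log2 ratio was -0.78, dark minus light, and it lay between -0.85 and -0.72 when each library was left out in turn. Light-phase replicate 3 joined the lowest AQP1 with the highest TRPV4 of its phase, and light-phase replicate 5 the highest AQP1 with the lowest TRPV4.

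**Figure D2:**
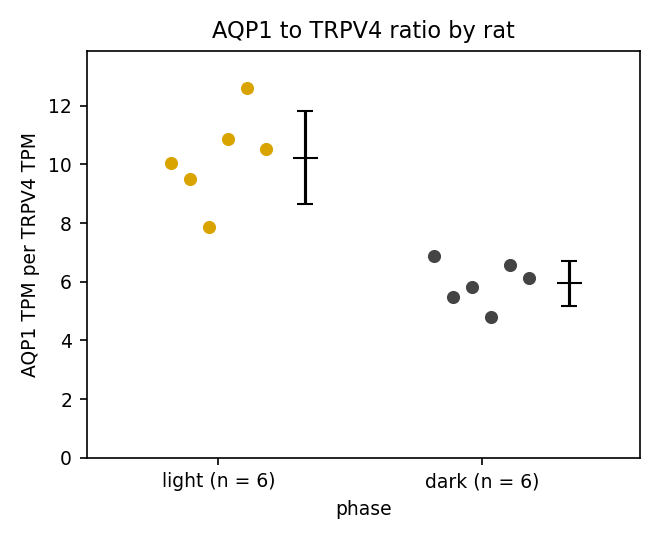
Ratio of AQP1 to TRPV4 expression (TPM over TPM, vertical axis from 0) in each light-phase and dark-phase library, with points for the 6 libraries of a phase and bars for the mean and SD. The ratio was 7.86 to 12.6 at ZT8 and 4.79 to 6.88 at ZT20.

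Across rats of one phase the levels of the 2 genes had no relation that passed the test. In the light phase Pearson's r was -0.58 (exact permutation p = 0.244) and Spearman's rho -0.43 (exact permutation p = 0.419, n = 6). In the dark phase r was -0.22 (exact permutation p = 0.642) and rho -0.14 (exact permutation p = 0.803, n = 6). Without the 2 libraries farthest from the median of AQP1, r was -0.56 at ZT8 and 0.46 at ZT20. None of 10 such relations, which also set each gene against the epithelial and endothelial marker means, passed after adjustment (lowest adjusted p = 0.826 for r and 0.699 for rho). With TPM as deposited, none passed either, but the r of AQP1 with the epithelial marker mean was 0.81 at ZT20 in place of 0.47 (adjusted exact permutation p = 0.0833) and -0.34 at ZT8 in place of 0.38 (0.772).

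Both genes were also set against the 14 epithelial markers, as log2 TPM minus the mean log2 TPM of the markers in the same library. On this scale AQP1 had -0.71 ± 0.12 at ZT8 and -1.13 ± 0.13 at ZT20 (mean ± SD, n = 6 each), a difference of -0.43 (two-sided exact permutation test, p = 0.00216). TRPV4 had -4.05 ± 0.16 and -3.70 ± 0.09 (mean ± SD, n = 6 each), a difference of 0.35 (two-sided exact permutation test, p = 0.00216). On this scale the phases did not overlap for either gene. The reference is itself mixed, since limma called 4 markers higher at ZT20 (PRLR, KL, OTX2 and CLIC6) and 2 higher at ZT8 (KRT8 and SOSTDC1), with 8 not called. Against the markers not called alone, the differences were -0.37 for AQP1 and 0.41 for TRPV4 (two-sided exact permutation test, p = 0.00216 for both). These markers were chosen by the same fit on the same libraries, so this comparison gives sizes and no independent test.

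The other genes named below come from 5 lists of relatives, partners and transporters. Symbols reach genes of lower level only through tables of genes that the authors had called, so counts over a list use only the members paired through the table ordered by level, which holds genes of at least 50.6 TPM at ZT8. Of the 1997 genes paired in this way limma called 23.5%, 8.96% higher at ZT20 and 14.6% higher at ZT8, with a median log2 fold change of -0.04. Apart from AQP1 and TRPV4, the 5 lists held 27 such identifiers, of which 8 were called, 3 higher at ZT20 and 5 higher at ZT8.

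Of 13 aquaporins looked for, only AQP1 could be paired with an identifier. Of 28 TRP channels, 2 were paired by level, TRPV4 and TRPM3, a heat- and steroid-gated cation channel. TRPM3 had 91.8, 105 and 121 TPM at ZT8 and 88.3, 98.8 and 111 TPM at ZT20, as the lowest, median and highest library. Its phases overlapped and it was not called (log2 fold change -0.12, limma FDR = 0.263). TRPM3 exceeded TRPV4 in all 12 libraries, with means of 106 against 59.8 TPM at ZT8 and 98.4 against 79.6 TPM at ZT20. Paired only through the tables of called genes were TRPM7, a channel fused to a kinase (28.8 to 32.0 TPM, light to dark, log2 fold change 0.13, limma FDR = 0.0401), and PKD2, the cilium-linked polycystin-2 (21.8 to 25.5 TPM, log2 fold change 0.21, limma FDR = 0.017). The TRPM7 call was lost in 9 of the 12 fits that left out 1 library, and with the covariate for the FPKM to TPM ratio neither TRPM7 (log2 fold change 0.06, limma FDR = 0.646) nor PKD2 (0.15, limma FDR = 0.38) was called.

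Proteins that bind TRPV4, or act upstream or downstream of it, formed a list of 32 names, of which 10 identifiers were paired by level, CALM2 with 2 of them. Limma called 1 higher at ZT20 and 1 higher at ZT8, and 8 identifiers were not called, with a median log2 fold change of 0.02. Of all 1997 genes paired by level it called 8.96% higher at ZT20 and 14.6% higher at ZT8. PACSIN2, a membrane-bending protein that binds TRPV4, had 51.6, 55.7 and 57.7 TPM at ZT8 and 67.0, 70.4 and 75.7 TPM at ZT20, as the lowest, median and highest library. Its phases did not overlap, and PACSIN2 rose at ZT20 as TRPV4 did (log2 fold change 0.34, limma FDR = 2.44e-05). It was called under each alternative run, the FPKM to TPM ratio included (limma FDR = 0.00688). EPHX1, which degrades epoxide lipids, had 218 ± 18.5 TPM at ZT8 and 194 ± 11.9 TPM at ZT20 (mean ± SD, n = 6 each; fold change on the log2 scale -0.19, limma FDR = 0.0424). The EPHX1 call was lost in 8 of the 12 fits that left out 1 library, and with the covariate, under which the log2 fold change was -0.26 (limma FDR = 0.163). Of 15 other alternatives, that covariate included, only 7 kept the EPHX1 call. It was also lost with TPM as deposited (-0.17 on the log2 scale, limma FDR = 0.0761) and with library weights (-0.17, limma FDR = 0.0708).

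Among those not called was ITPR1, the calcium release channel of internal stores (84.5 ± 5.83 against 89.2 ± 8.18 TPM, SD, n = 6 in both phases, log2 fold change 0.05, limma FDR = 0.562). STK39, the kinase SPAK, had 285 ± 12.5 TPM at ZT8 and 294 ± 21.3 TPM at ZT20 (mean ± SD, n = 6 each; limma FDR = 0.768). SLC12A2, the Na+-K+-2Cl- cotransporter NKCC1 that SPAK acts on, had 237 ± 13.3 TPM and 229 ± 12.8 TPM (mean ± SD, n = 6 each; limma FDR = 0.303). CALM2 stood under 2 identifiers, near-identical copies between which reads may be split, and neither was called. WNK1, the kinase upstream of SPAK, was paired only through the tables of called genes and had 17.3 ± 1.04 TPM against 22.9 ± 0.954 TPM at ZT20 (mean ± SD, n = 6 each; fold change on the log2 scale 0.38, limma FDR = 1.93e-05). By the same route came PRKCA, a calcium-dependent kinase (1.82 to 2.82 TPM, light to dark, log2 fold change 0.50, limma FDR = 0.0143), and ITCH, a ubiquitin ligase (14.3 to 17.7 TPM, log2 fold change 0.28, limma FDR = 0.0196). In WNK1, PRKCA and ITCH the phases did not overlap. With the covariate for the FPKM to TPM ratio WNK1 was still called (limma FDR = 0.00885), while PRKCA (0.323, with a log2 fold change of 0.38) and ITCH (0.573, with 0.13) were not.

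Genes of cell volume regulation formed a list of 26 names with 6 paired by level. Limma called 0 of these higher at ZT20 and 2 higher at ZT8, and the median log2 fold change was -0.10. Over the 1997 genes paired by level the shares called were 8.96% and 14.6% in this order. At an unadjusted p under 0.05, 3 of the 6 passed, as did 3859 of all 12513 genes tested, which include genes of lower level. SGK1, a kinase induced by glucocorticoids and by cell shrinkage, had 108, 150 and 177 TPM at ZT8 and 87.5, 102 and 113 TPM at ZT20, as the lowest, median and highest library. The highest dark-phase library exceeded the lowest light-phase library, and SGK1 was called (log2 fold change -0.57, limma FDR = 0.00175). The other was SLC12A4, the K+-Cl- cotransporter KCC1 (134 ± 3.70 against 119 ± 6.11 TPM, mean ± SD, n = 6 each; fold change on the log2 scale -0.18, limma FDR = 0.0102). Other members were paired only through the tables of called genes. Among them, higher at ZT20 were WNK1, SLC12A7, the K+-Cl- cotransporter KCC4 (30.1 to 34.9 TPM, log2 fold change 0.19, limma FDR = 0.0173), and NFAT5, a transcription factor of osmotic stress (6.10 to 7.25 TPM, log2 fold change 0.22, limma FDR = 0.0318). Lower at ZT20 were subunits of the volume-regulated anion channel. LRRC8C fell by 0.58 on the log2 scale (12.4 to 8.31 TPM), LRRC8B fell by 0.37 (5.08 to 3.88 TPM) and LRRC8D fell by 0.31 (12.4 to 10.1 TPM). The LRRC8D call was lost in 5 of the 12 fits that left out 1 library, and so was that of NFAT5 in 5. With the covariate for the FPKM to TPM ratio SGK1 had a log2 fold change of -0.93 and it and LRRC8C were still called, while LRRC8B (limma FDR = 0.0623), LRRC8D (0.3), SLC12A7 (0.148) and NFAT5 (0.427) were not, at log2 fold changes of -0.40, -0.29, 0.23 and 0.16 in this order.

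The transporters of cerebrospinal fluid secretion put AQP1 in the context of its own cell. Of 20 names, 15 were paired by level, and limma called 2 higher at ZT20 and 3 higher at ZT8, with 10 not called and a median log2 fold change of -0.0031. Over the 1997 genes paired by level the shares called were 8.96% higher at ZT20 and 14.6% higher at ZT8. The 3 in the direction of AQP1 were SLC4A5, a bicarbonate transporter, CA12, an extracellular carbonic anhydrase, and SLC12A4. SLC4A5 had 618, 635 and 662 TPM at ZT8 and 495, 542 and 580.0 TPM at ZT20, as the lowest, median and highest library. CA12 had 485, 533 and 552 TPM at ZT8 and 417, 442 and 456 TPM at ZT20. In both the phases did not overlap, with log2 fold changes of -0.26 for SLC4A5 (limma FDR = 0.00242) and -0.27 for CA12 (limma FDR = 0.00102). ATP1B2, a subunit of the Na+/K+-ATPase, and CLIC6, a chloride channel family protein, were higher at ZT20 (log2 fold changes 0.20 and 0.17, limma FDR = 0.00981 and 0.0172). With the covariate for the FPKM to TPM ratio, SLC4A5 (limma FDR = 0.119), CA12 (0.0714), SLC12A4 (0.279), ATP1B2 (0.0539) and CLIC6 (0.104) were no longer called, at log2 fold changes of -0.24, -0.26, -0.15, 0.28 and 0.22 in this order. Paired only through the tables of called genes were SLC12A7, the potassium channel KCNQ1 (22.6 to 17.8 TPM, log2 fold change -0.36, limma FDR = 0.00944) and the bicarbonate transporter SLC4A7 (7.18 to 8.69 TPM, log2 fold change 0.24, limma FDR = 0.0403). The SLC4A7 call was lost in 10 of the 12 fits that left out 1 library, and with the covariate neither KCNQ1 (-0.22 on the log2 scale, limma FDR = 0.385) nor SLC4A7 (0.18, limma FDR = 0.445) was called.

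**Figure D3:**
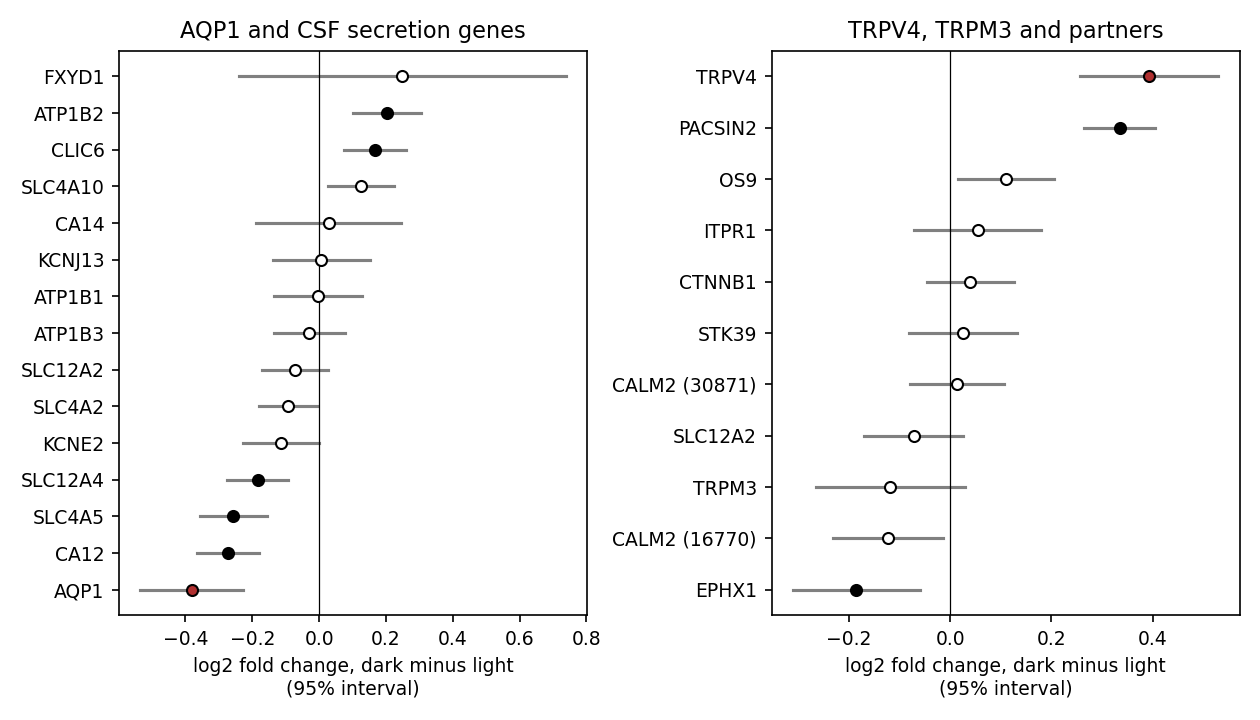
Log2 fold change, dark minus light (horizontal axis, bars for the 95% interval), of AQP1 with the secretion transporters and of TRPV4 with TRPM3 and its partners, showing genes paired through the table ordered by level, with filled points for an FDR below 0.05. AQP1 (-0.38) and TRPV4 (0.39) lay on opposite sides of 0, and the numbers behind CALM2 are the endings of its 2 identifiers.

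Since TPM is a value per transcript length, levels may be ordered between genes. Among the transporters AQP1 was below SLC4A5 in each of the 12 libraries. In the light phase AQP1 exceeded CA12 and SLC4A2 in all 6 libraries, and at ZT20 it did so in 5 and 3 libraries. At ZT20 AQP1 and SLC4A2, an anion exchanger, both had a mean of 471.5 TPM. TRPV4 was below OS9, a chaperone of the endoplasmic reticulum that binds it, in all 6 light-phase libraries and above it in 4 dark-phase libraries, with dark-phase means of 79.6 and 77.5 TPM. OS9 itself was not called (log2 fold change 0.11, limma FDR = 0.108).

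The genes most like AQP1 and TRPV4 over the 12 libraries were ranked by Pearson's r of log2 scaled TPM, among 3070 genes with a symbol and a mean of at least 10 TPM. All libraries share their scaling and the phase, so r is a description and was also computed with the phase means removed. The 5 most like AQP1 were SIDT2 (r = 0.96), PDCD10 (0.96), SLC4A5 (0.96), SLC12A4 (0.95) and RNF123 (0.94). With the phase means removed SIDT2 and PDCD10 remained among the first 5 (0.86 and 0.87), and SLC4A5 had 0.85. The other 3 were KREMEN1 (0.90), PMAIP1 (0.87) and SLC16A6 (0.85). KREMEN1, a receptor of the Wnt antagonist DKK1, had 31.8 ± 0.84 TPM at ZT8 and 41.3 ± 2.48 TPM at ZT20 (mean ± SD, n = 6 each; fold change on the log2 scale 0.35, limma FDR = 0.000168). Between the phases KREMEN1 thus differed in the direction opposite to AQP1. The same held for SLC16A6, a monocarboxylate transporter (48.3 ± 4.06 against 73.0 ± 5.35 TPM, mean ± SD, n = 6 each; fold change on the log2 scale 0.57). Both were picked from the top of 3070 values of r, so a high r was likely by selection. Their r with AQP1 within a single phase was not computed.

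Most like TRPV4 were ATP2B2 (r = 0.97), STRIP2 (0.96), HSF1 (0.96), SLC22A8 (0.95) and TMEM64 (0.95). ATP2B2, a calcium pump of the plasma membrane, also had the highest r once the phase means were removed (0.89). Its levels were 57.4, 61.1 and 69.5 TPM at ZT8 and 70.0, 72.3 and 79.4 TPM at ZT20, as the lowest, median and highest library. The phases did not overlap, and the log2 fold change was 0.22 (limma FDR = 0.00621). With the covariate for the FPKM to TPM ratio it was 0.23 (limma FDR = 0.137). STRIP2 and HSF1, the heat shock transcription factor, were also among the first 5 with the phase means removed (0.84 and 0.81), beside NCSTN (0.84) and CRK (0.83). SLC22A8, an organic anion transporter, differed more than TRPV4, with 83.3 ± 9.61 TPM at ZT8 and 142 ± 12.3 TPM at ZT20 (mean ± SD, n = 6 each; fold change on the log2 scale 0.75, limma FDR = 6.7e-05). PACSIN2, which rose with TRPV4 between the phases (r = 0.86), had an r of 0.01 once the phase means were removed.

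**Figure D4:**
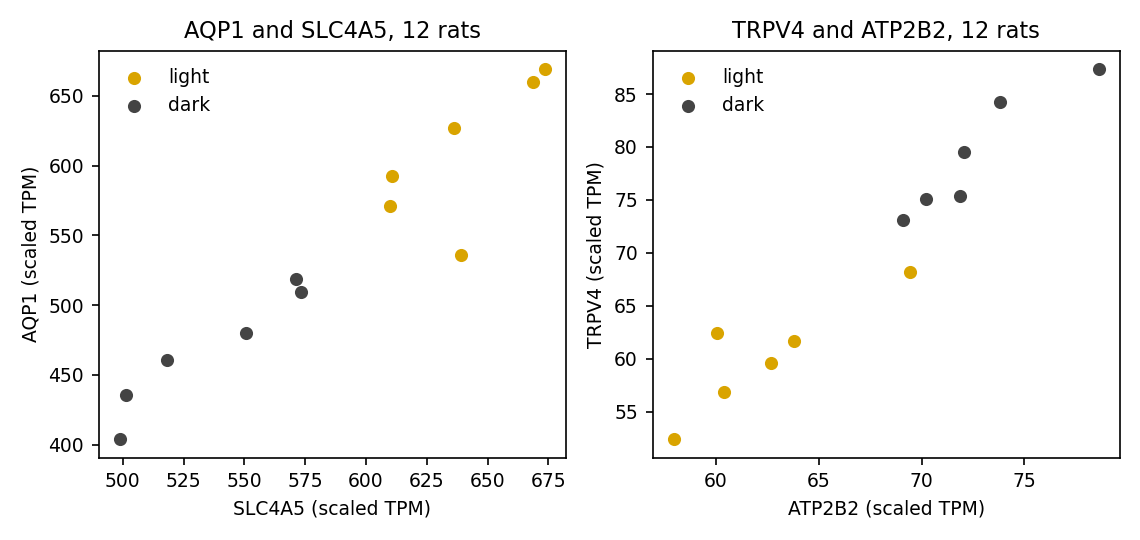
Scaled TPM of AQP1 against SLC4A5 and of TRPV4 against ATP2B2 (linear axes that do not start at 0), with 1 point per library and colors for the phases. Over the 12 libraries r was 0.96 and 0.97, and with the phase means removed 0.85 and 0.89.

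**Figure D5:**
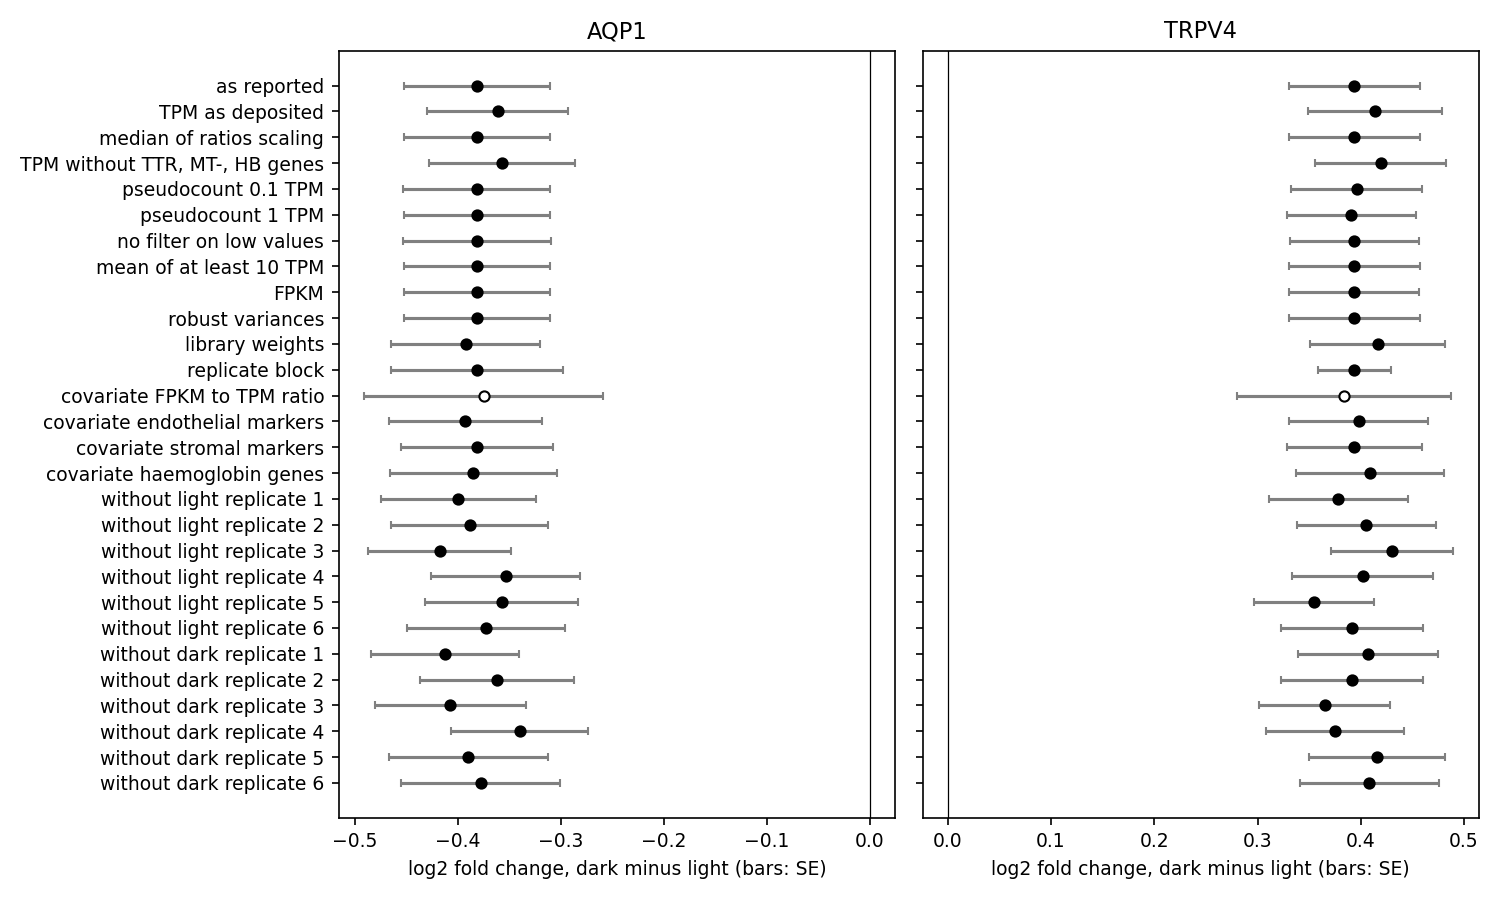
Log2 fold change, dark minus light, of AQP1 and TRPV4 under each alternative (horizontal axis, bars for the standard error), with filled points for an FDR below 0.05. The estimates stayed between -0.42 and -0.34 for AQP1 and between 0.36 and 0.43 for TRPV4, and the FDR was above 0.05 only with the covariate for the FPKM to TPM ratio.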

How the data were processed

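RNA of 12 libraries, 6 of each phase, was analysed. According to the submitters' processing notes and the methods of the study, STAR 2.7.9a mapped the reads to Rnor_6.0, and they were quantified per gene with RSEM 1.3.3, and differential expression was tested with DESeq2 on read counts. The TPM values were deposited by the authors for each library and are the values used here. The FPKM values deposited by the authors beside them served only for the FPKM to TPM ratio and as an alternative. Neither unit keeps the depth, so no counting error could be given and errors are the spread between rats.

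TPM was divided by a trimmed mean of ratios (30% of ratios and 5% of levels trimmed at each end), transformed to log2(TPM + 0.5), and fitted with limma 3.58.1 in R 4.3.3 (phase alone, variance trend, Benjamini-Hochberg over the 12513 genes averaging 1 TPM or more, called at an FDR below 0.05). The added 0.5 TPM understates changes of low genes. Single values were compared by exact permutation tests over libraries (Python 3.11.15, scipy 1.17.1). The fit was tested on simulated data. No 2 libraries were identical (r 0.958 to 0.983).

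Symbols came only from 3 gene tables of the study, of which 2 were held in part, so 3627 of the tested genes had one. AQP1, TRPV4, the gene lists and the rules were chosen with earlier results of these data known. Named are both genes, every paired aquaporin and TRP channel, called or extreme members of the other lists, marker genes, and the 5 genes most like each of the 2 by either measure. OS9, ITPR1, STK39, SLC12A2 and SLC4A2 were named after their values were seen. Some members of the lists are counted but not reported here by name. Alternatives were other scalings, added values, filters, FPKM, robust variances, library weights, covariates, a replicate block and leaving out each library.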

Additional observations from a re-analysis of the deposited data

How the results depend on the processing

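The direction of AQP1, TRPV4 and each other called gene whose fold change is given held under every alternative run, with no sign reversed. With a covariate for the FPKM to TPM ratio, AQP1 (-0.37, limma FDR = 0.115) and TRPV4 (0.38, limma FDR = 0.0765) were no longer called, 342 genes in all were called in place of 2211, and 2 list genes in place of 8. The estimates of AQP1 and TRPV4 barely moved while their standard errors rose. The ratio itself moved with the phase, so this fit can tell the ratio and the phase apart only in part. What the ratio reflects was not tested. Leaving out each library in turn gave -0.42 to -0.34 for AQP1 (limma FDR 0.0019 to 0.00823), 0.36 to 0.43 for TRPV4 (0.000584 to 0.00334), -0.85 to -0.72 for their log2 ratio, -0.47 to -0.38 and 0.31 to 0.40 for AQP1 and TRPV4 against the epithelial markers, 1697 to 2282 called genes and 7 to 8 list genes. Other alternatives gave -0.39 to -0.36 for AQP1 and 0.38 to 0.42 for TRPV4, and the median log2 fold change of all genes lay within -0.014 and 0.0129 under each scaling and filter. The covariate of haemoglobin genes, chosen after seeing the data, gave -0.38 (limma FDR = 0.00853) for AQP1 and 0.41 (limma FDR = 0.00331) for TRPV4. With it EPHX1 (limma FDR = 0.125), SLC12A7 (0.0595), LRRC8D (0.0829), NFAT5 (0.0542), TRPM7 (0.0963) and SLC4A7 (0.118) were no longer called. Their log2 fold changes were -0.16, 0.165, -0.27, 0.23, 0.12 and 0.20 in this order. The r of 0.46 between both genes in the dark phase without 2 libraries had the opposite sign to that of all 6 (-0.22). With TPM as deposited, the r of AQP1 with the epithelial marker mean turned from 0.38 to -0.34 in the light phase and rose from 0.47 to 0.81 in the dark phase, so these relations depend on the scaling.

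Same-numbered libraries of the phases did not deviate together (r -0.107 to 0.047, and 0 of 12 libraries correlated best with their own number), so the numbers do not pair the rats. With the number as a replicate block, the FDR was 0.024 for AQP1 (-0.38) and 0.000765 for TRPV4 (0.39), and 1588 genes and 6 list genes were called. By sign changes over the pairs, the exact p of the ratio (-0.78) was 0.0312, the smallest possible. Both values against the epithelial markers (-0.43 and 0.35) gave the same exact p by sign changes. The phases did not overlap in any of these measures, so every pairing gives this p and it adds no further test. Of the called genes whose fold change is given, 8 lost their call under the block, namely CLIC6 (limma FDR = 0.0557), EPHX1 (0.0764), PKD2 (0.0531), TRPM7 (0.0918), LRRC8D (0.0569), PRKCA (0.0537), NFAT5 (0.0928) and SLC4A7 (0.063). Depth is unknown, which limits statements on low genes, and replicates are separate rats, sampled at 1 time per phase.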
